A study of Homo sapiens with 2 samples.

Results

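The 7 genes of the core-binding factor network described here are viewed through the peaks of a histone mark that lie on them: CBFA2T3, CBFA2T2 and RUNX1T1 of the ETO family, the 3 RUNX genes RUNX1, RUNX2 and RUNX3, and CBFB. A peak of the authors' list was assigned to a gene where its summit lay in the gene body or within 1 kb of any annotated transcription start site (TSS) of that gene in GENCODE release 44. The set was chosen by gene family and by the number of peaks on CBFA2T3 in this same list, so the counts and densities are a description and carry no test. By this rule 47 of the 33349 peaks on chromosomes 1 to 22 and X (0.141%) lay on the 7 genes.

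The study held 1 H4R3me2a chromatin immunoprecipitation library and 1 library of input DNA, both from HCT116, an established line of human colorectal carcinoma cells that received no drug. Chromatin was fixed with 1% formaldehyde for 10 min and sheared to fragments of 200 to 500 bp, and reads were paired, 150 bp each. H4R3me2a is asymmetric dimethylation of arginine 3 of histone H4. Neither library was repeated, so differences between genes are descriptions of a single experiment, and each interval covers counting error only and treats neighbouring peaks as independent. Read numbers were not among the values analysed here, nor were RNA levels of the 7 genes or the coverage of the input.

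Core-binding factor is a pair of proteins: a RUNX protein, which contacts DNA through its Runt domain, and CBFB, which does not contact DNA itself and strengthens the binding of its partner. RUNX1 is required to make blood stem cells, RUNX2 drives bone formation, and RUNX3 acts in T cells, sensory neurons and epithelia. Each RUNX gene is transcribed from a distal and a proximal promoter that lie far apart. CBFA2T3, CBFA2T2 and RUNX1T1 encode nuclear corepressors without sequence-specific DNA binding, which bridge transcription factors to corepressor complexes and histone deacetylases. Several of these genes are joined to a partner in leukaemia, as in the RUNX1-RUNX1T1 and CBFB-MYH11 fusions. The arginine methyltransferase PRMT1, which makes H4R3me2a, also methylates RUNX1 itself.

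The peaks were spread very unevenly over the set. CBFA2T3 held 36 of the 47 (76.6%) and RUNX3 held 8. RUNX1, RUNX2 and CBFB had 1 peak each, and CBFA2T2 and RUNX1T1 had none. Thus 5 of the 7 genes had a peak, against 47.2% of 19970 protein-coding genes by the same rule. Within 1 kb of any TSS, 3 of the 7 genes (CBFA2T3, RUNX3 and CBFB) had a peak, against 31.6% of protein-coding genes. Within 1 kb of the 5' end of the gene, only RUNX3 had a peak, against 19.2% of protein-coding genes. With 7 genes none of these shares is a result about the set.

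Sequences of 200 bp centred on the summit are shown for the highest fold, the highest pileup and the summit nearest to a TSS in CBFA2T3 and for the highest fold in RUNX3, since these are the peaks the description turns on. Here the pileup is the number of fragments of the H4R3me2a library over the summit, and the fold is the authors' ratio of pileup to local background. Sequences are from GRCh38 on the strand of the gene, and capitals mark CpG dinucleotides. The windows are chr16:88927802-88928001, chr16:88896640-88896839 and chr16:88940445-88940644 in CBFA2T3 and chr1:24929351-24929550 in RUNX3, all on the minus strand. They hold 12, 11, 16 and 21 CpGs in that order.
CBFA2T3, highest fold: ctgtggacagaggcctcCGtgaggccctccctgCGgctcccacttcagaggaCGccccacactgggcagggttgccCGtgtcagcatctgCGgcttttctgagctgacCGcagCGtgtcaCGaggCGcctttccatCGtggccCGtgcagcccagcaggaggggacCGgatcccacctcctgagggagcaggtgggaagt
CBFA2T3, highest pileup: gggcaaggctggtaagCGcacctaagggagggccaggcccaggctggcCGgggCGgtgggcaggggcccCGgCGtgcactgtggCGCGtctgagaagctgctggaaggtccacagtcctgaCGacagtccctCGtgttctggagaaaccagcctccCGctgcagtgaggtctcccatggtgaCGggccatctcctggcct
CBFA2T3, nearest to a TSS: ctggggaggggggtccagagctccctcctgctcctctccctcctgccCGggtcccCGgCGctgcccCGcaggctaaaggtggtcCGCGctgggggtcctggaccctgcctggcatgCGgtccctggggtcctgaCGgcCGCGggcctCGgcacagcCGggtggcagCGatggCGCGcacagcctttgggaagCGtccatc
RUNX3, highest fold: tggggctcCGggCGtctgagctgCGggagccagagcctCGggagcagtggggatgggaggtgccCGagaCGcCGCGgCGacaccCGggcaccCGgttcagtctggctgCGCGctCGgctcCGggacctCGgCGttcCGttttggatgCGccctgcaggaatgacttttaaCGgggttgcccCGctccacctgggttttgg

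CBFA2T3 (ENSG00000129993.15, chromosome 16, 88874858 to 88977207, minus strand) is 102.35 kb long and has 11 annotated TSSs. Its 36 peaks came to 3.48 per 10 kb (exact Poisson 95% interval 2.44 to 4.82), or 1 peak in 2.87 kb. Only 9 of the 19970 protein-coding genes had more peaks, and 2.25% of the 15307 genes of 10 kb or more had at least as many per 10 kb, with CBFA2T3 at rank 345. The median of those genes was 0.0382 per 10 kb.

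Peak density across the genome moved with base composition, and CBFA2T3 is a GC-rich gene. It had a GC content of 60.7%, and 91.5% of its 400-bp windows had a GC content of 50% or more, against 13.8% of windows over chromosomes 1 to 22 and X. If each window had the mean peak rate of all windows with the same GC content (in steps of 2%), the gene would have held 17.4 peaks. The observed 36 were 2.07 times that number (1.45 to 2.86). In windows of 60 to 70% GC, CBFA2T3 held 30 summits in 65.6 kb, or 4.57 per 10 kb, against 2.14 per 10 kb in such windows everywhere. By the ratio of observed to GC-based number, CBFA2T3 was at rank 1358 of 5819 genes of 10 kb or more with a GC-based number of 1 or more.

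**Figure D1:**
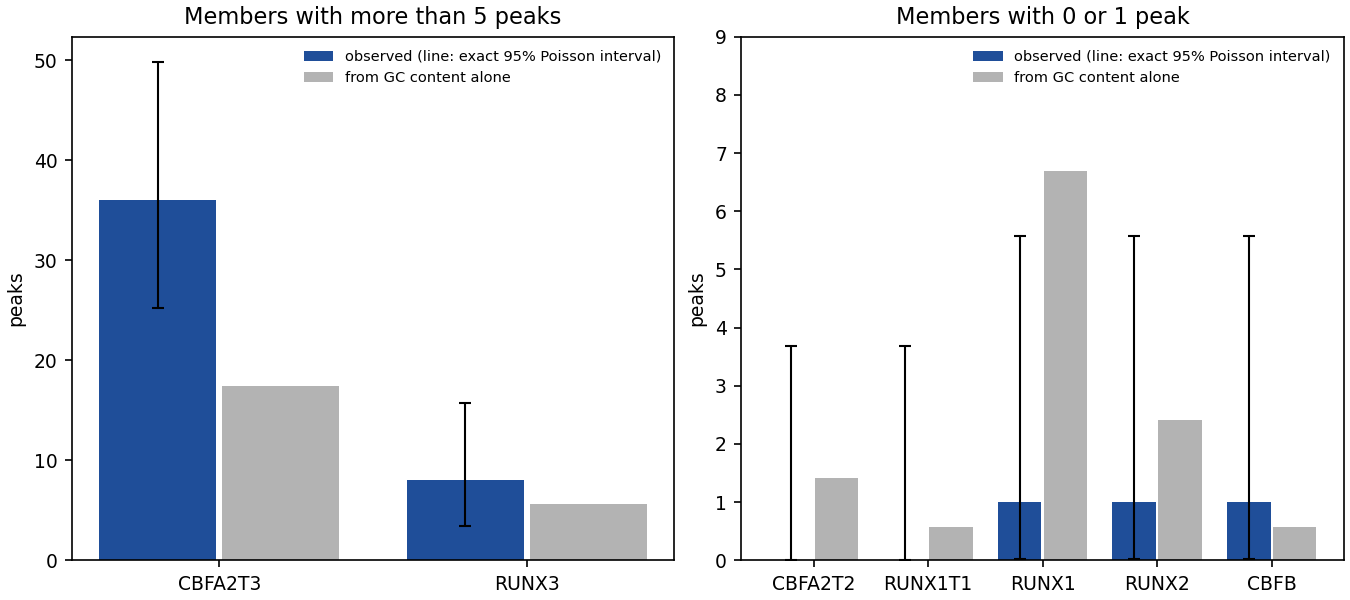
Observed number of peaks on each gene (blue, with the exact 95% Poisson interval as a line) beside the number that GC content alone would give (grey), with separate linear scales for the 2 genes with most peaks and the other 5. CBFA2T3 had 36 peaks against 17.4 and RUNX3 had 8 against 5.58, while RUNX1 had 1 against 6.70.

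The gene lies in a peak-rich end of chromosome 16. From 88 Mb to the end of the chromosome there were 490 peaks, or 2.10 per 10 kb, and CBFA2T3 held 7.35% of them. The stretch had 2.31 times its GC-based number, against 2.07 times for CBFA2T3, so the excess over composition was not particular to the gene. Among the 31 protein-coding genes of 10 kb or more in that stretch, CBFA2T3 was at rank 14 by peaks per 10 kb, and the median gene had 3.05 per 10 kb. Only 1 gene there had more peaks. The 100 kb beyond its 3' end held 43 peaks (4.30 per 10 kb, 3.01 times the GC-based number), more than the gene itself, and the 100 kb before its 5' end held 21 (2.10 per 10 kb, 1.46 times). By the same rule, the next protein-coding gene on its 3' side, PABPN1L, had 4 peaks (9.24 per 10 kb). The next on its 5' side, ACSF3, which encodes a mitochondrial acyl-CoA synthetase, had 14 (1.82 per 10 kb).

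**Figure D2:**
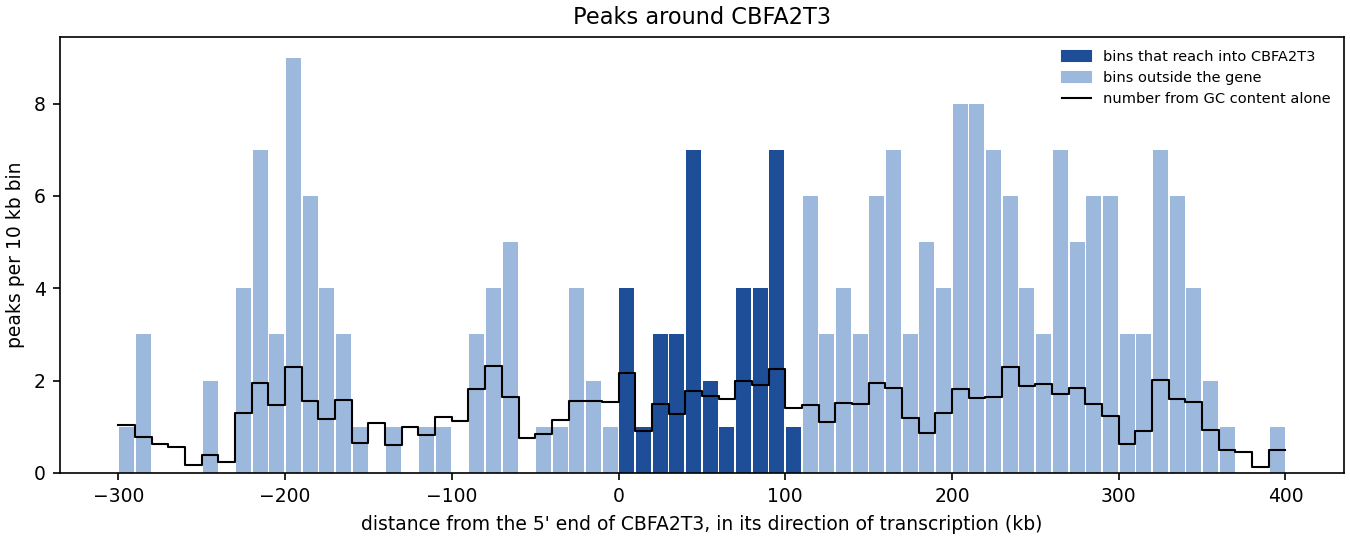
Number of peaks in bins of 10 kb by distance from the 5' end of CBFA2T3 in its direction of transcription, with bins that reach into the gene in dark blue, other bins in light blue and the number from GC content as a black line. The gene's bins held 1 to 7 peaks, and bins beyond its 3' end reached 8.

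Within CBFA2T3, nearly all summits were intronic. By the canonical transcript, 35 summits lay in introns and 1 in an exon, the last, where it fell in coding sequence. The first intron, 75 kb long, held 23 peaks (3.07 per 10 kb, 1.94 to 4.60), which was 1.93 times its GC-based number. The 26.8 kb from exon 2 to the 3' end held 13 (4.85 per 10 kb, 2.58 to 8.30), or 2.52 times. The intervals of these densities overlap. Intron 5 held 5 peaks in 5739 bp. The densest 10 kb of the gene held 8 summits, from 87003 to 95056 bp downstream of the 5' end. The 35 distances between neighbouring summits had a median of 2111 bp, and 16 were under 2 kb. They ran from 291 bp to 10953 bp, the longest being the stretch between summits 7572 and 18525 bp from the 5' end.

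Peaks of CBFA2T3 stood mostly away from its start sites. The 5' end, which is also the canonical TSS, had no summit within 1 kb, and the nearest lay 1643 bp downstream. On the other side, outside the rule, a summit lay 1648 bp upstream. In all, 4 summits lay within 1 kb of a TSS, all of them internal, and the other 32 lay further away. Windows of 1 kb on either side of the TSSs made up 11.7% of the sequence searched and held 11.1% of the peaks, and the 4 peaks there compared with a GC-based number of 2.38. The median distance to the nearest TSS was 5078 bp.

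The 4 summits near internal TSSs differed in position. One lay 654 bp downstream of the TSS of a protein-coding transcript that starts 36009 bp into the gene. Within 200 bp on either side of this summit the sequence had a GC content of 72.3%, the highest of the gene's peaks, and 32 CpGs. The sequence shown above is the central 200 bp of that stretch. The RefSeq promoter of CBFA2T3, which lies next to this internal start (chromosome 16, 88941301 to 88941600), had a GC content of 83% and 46 CpGs in 300 bp, and no summit fell in it. The other 3 summits lay upstream of their nearest TSS, by 907, 941 and 838 bp. These TSSs lie 19432, 74692 and 95894 bp into the gene, and none belongs to a transcript of GENCODE's basic set. Of the 11 TSSs, 6 had a summit within 1 kb, some of them sharing a summit.

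**Figure D3:**
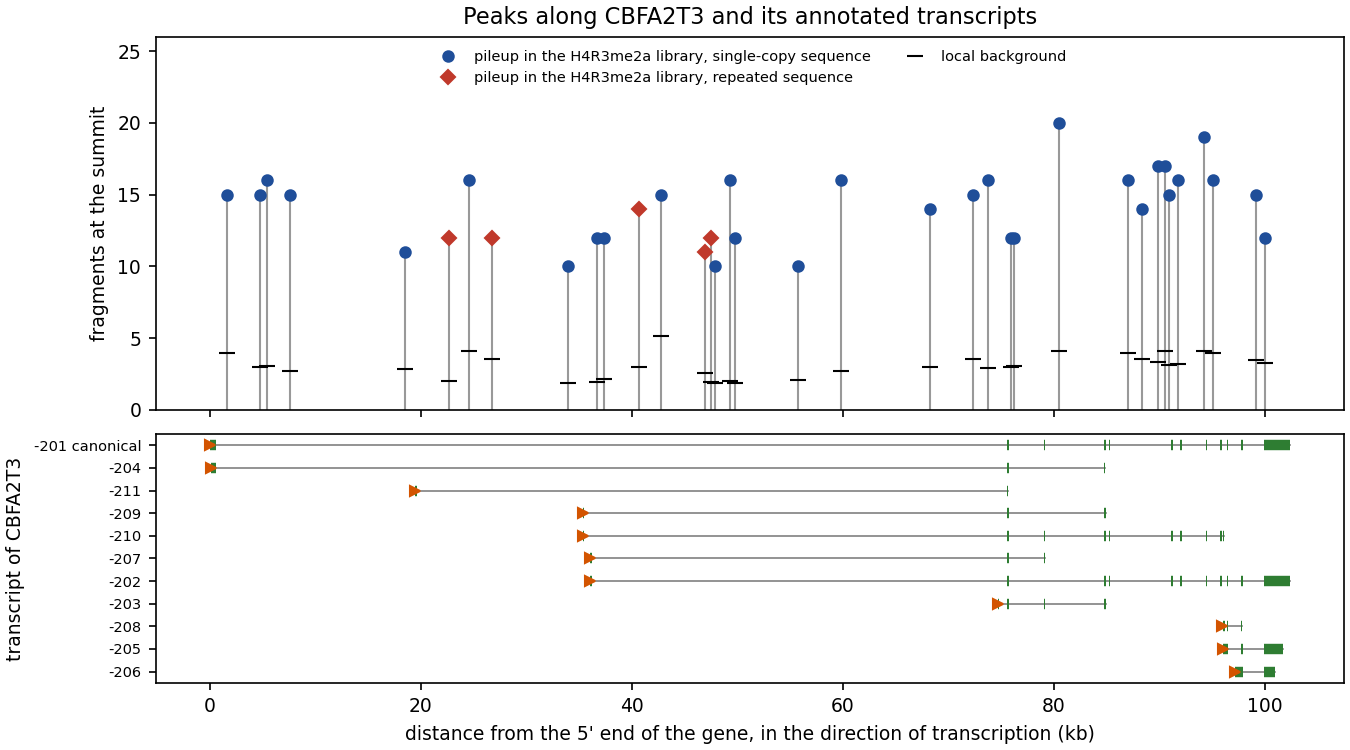
Upper panel, pileup (circles for single-copy sequence, diamonds for repeated sequence) and local background (dashes) in fragments at each of the 36 summits of CBFA2T3 by distance from its 5' end. Lower panel, its 11 transcripts with exons in green and TSSs as orange arrowheads. Peaks ran through the whole gene with no summit within 1 kb of the 5' end, and the highest pileups, 19 and 20, lay more than 80 kb into the gene.

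Individually the peaks of CBFA2T3 were modest. Pileups ran from 10 to 20 fragments with a median of 15, against 10 in all peaks, and 31 of the 36 (86.1%) reached 12 fragments, against 28.6% of all peaks. The median fold was 3.79 (range 2.61 to 5.69), below the 4.18 of all peaks. The local background, the number of fragments expected at the summit, moved with these values. It had a median of 3.05 (1.87 to 5.12) in CBFA2T3 against 1.89 on chromosome 16 and 1.54 in all peaks. Where the background was 2.9 or more, no peak of the whole list had fewer than 11 fragments. Such a background was found at 23 of the 36 CBFA2T3 peaks, against 8.90% of all peaks. The median background was 3.50 from exon 2 to the 3' end and 2.72 in the first intron. The part of background in the peak number of the gene was not tested.

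The peak with the highest fold, 5.69 (88927640 to 88928083, 444 bp, 16 fragments over 1.99), lay 49306 bp into the gene in the first intron and was the only one with a −log10 q of 5 or more, at 5.29. The highest pileup, 20 fragments over 4.10, was in intron 3 (88896669 to 88896896, fold 4.12). Widths had a median of 202 bp, against 185 bp in all peaks, and 3 peaks reached 500 bp. The widest, 734 bp, had its summit in intron 6 and reached over most of exon 6 (88885396 to 88886129, fold 4.04).

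**Figure D4:**
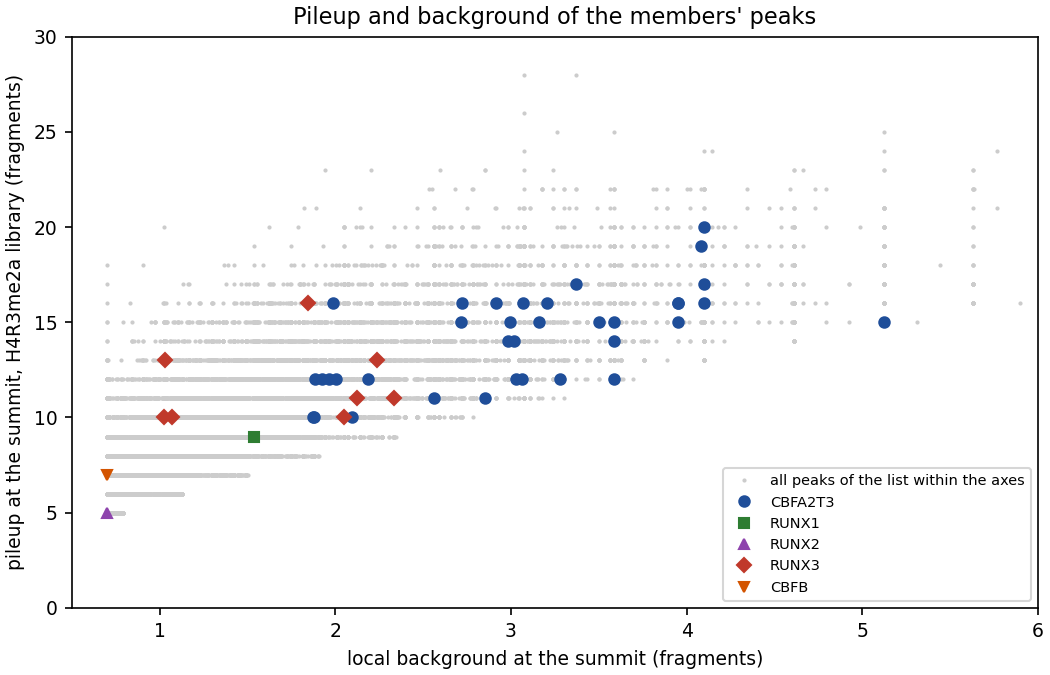
Pileup against local background, both in fragments at the summit, for the peaks of the 5 genes that had any (coloured symbols) and for all peaks of the list within the axes (grey). CBFA2T3 lay at backgrounds of 1.87 to 5.12, RUNX3 at 1.02 to 2.33, and the single peaks of RUNX2 and CBFB at 0.697.

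Some of the CBFA2T3 sequence was repeated. Around 31 of the 36 summits every 32-mer within 100 bp occurred once in the genome. Around the other 5, all in the first intron at 22665, 26729, 40696, 46896 and 47540 bp from the 5' end, 32-mers occurred up to 3 to 14 times, and every copy lay within 5 kb of the summit. Their pileups, 11 to 14 fragments, were inside the range of the other peaks of the gene. How many copies the HCT116 genome carries was not measured.

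Transcripts on the other strand overlap part of the gene. The lncRNA gene ENSG00000259881 (6099 bp) held 5 of the summits and the lncRNA gene ENSG00000205018 (11736 bp) held 4, and both are on the plus strand. A peak on chromatin has no strand, so those 9 summits cannot be given to one gene or the other.

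The genes most like CBFA2T3, taken as the 5 with the nearest number of peaks per 10 kb among 3105 protein-coding genes within 1.5 times its length, were ENSG00000273734 (3.58), SKI (3.22), ZFPM1 (3.78), NIBAN2 (3.08) and CORO7-PAM16 (2.83). SKI encodes a corepressor of SMAD signalling, and ZFPM1 encodes FOG1, a partner of GATA1. ZFPM1 lies on the same end of chromosome 16. Their likeness is in this single library, and 6 genes of such length had a higher density. The median of the 3105 was 0.0764 per 10 kb. In the order above, the 5 genes had 2.76, 2.60, 1.98, 4.09 and 2.40 times their GC-based numbers, against 2.07 for CBFA2T3.

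RUNX3 (ENSG00000020633.19, chromosome 1, 24899511 to 24965121, minus strand) was the other gene with several peaks. Its 8 peaks came to 1.20 per 10 kb (0.519 to 2.37), at rank 1891 of 15307, and compared with a GC-based number of 5.58, a ratio of 1.43 (0.619 to 2.83) whose interval includes 1. Its GC content was 54.8%. Pileups were 10 to 16 fragments with a median of 11, over backgrounds of 1.02 to 2.33, and folds had a median of 4.82, higher than in CBFA2T3 at a lower pileup.

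The RUNX3 peaks took up positions around both promoters and in the 3' part of the gene. The distal promoter had 1 summit, 960 bp upstream of the 5' end (24965854 to 24966158, fold 5.32, 10 fragments). That end is the start of a transcript without a defined coding sequence. The protein-coding distal TSS lay 1071 bp from the summit and had none within 1 kb. The distal peak was the only one of the set outside a gene body, and the next summit upstream, outside the rule, lay 2095 bp from the 5' end. Then came 34132 bp without a summit. The proximal promoter, where the canonical transcript starts 34845 bp into the gene, was flanked by a summit 1673 bp upstream of that TSS (fold 5.43, 10 fragments) and one 826 bp downstream (24929391 to 24929768, fold 6.90, 13 fragments). The downstream peak had the highest fold of the whole set and a −log10 q of 5.87. Its summit lay in the first intron of the canonical transcript, in sequence of 68.6% GC, and the peak reached into exon 1. Within 200 bp of the summit were 42 CpGs, the most of any peak on the 7 genes.

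Further down, RUNX3 had 1 summit in the second intron of the canonical transcript, 2 in the third, 1 in the fourth and 1 in the 3' UTR. The widest, 547 bp with 16 fragments and a fold of 5.97, lay in the third intron (24917702 to 24918248) in sequence with 3 CpGs. These 5 peaks had backgrounds of 1.85 to 2.33, against 1.02 to 1.07 for the 3 around the promoters. All 8 lay in single-copy sequence.

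**Figure D5:**
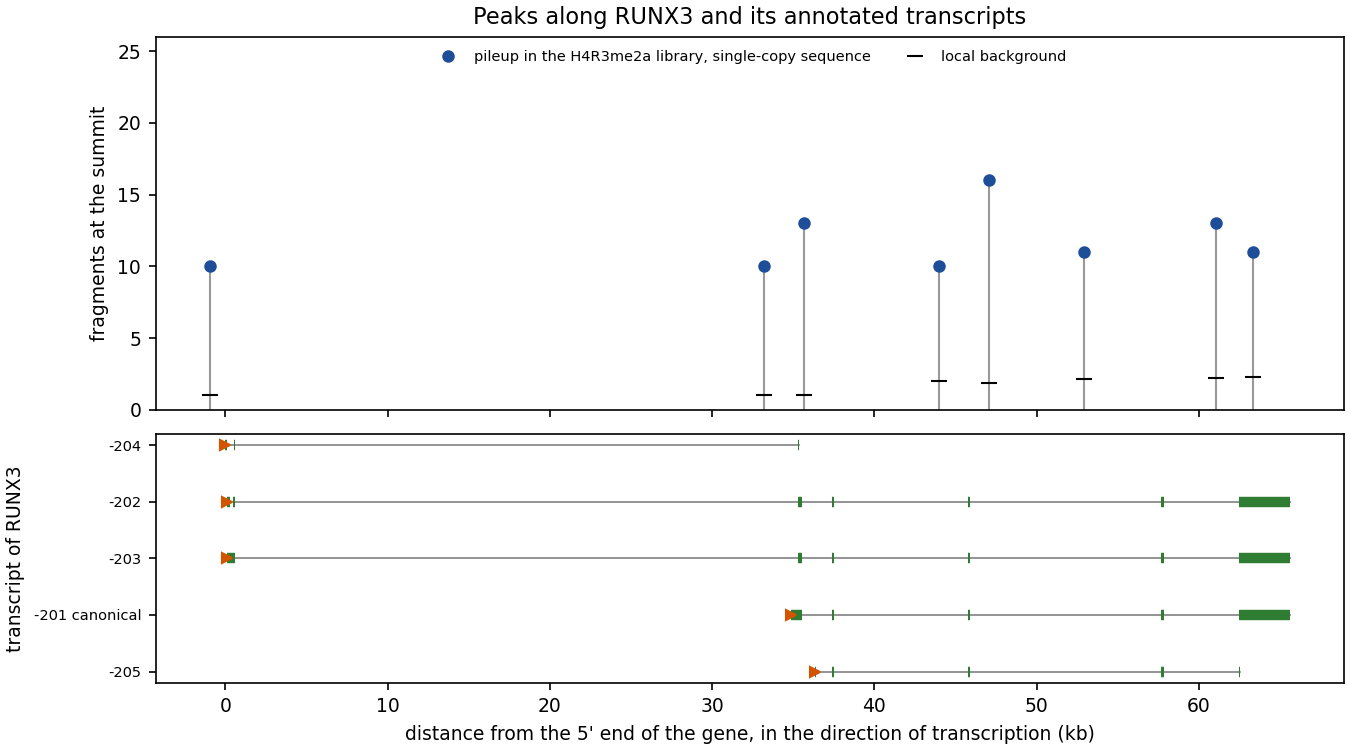
Upper panel, pileup (circles) and local background (dashes) in fragments at the 8 summits of RUNX3 by distance from its 5' end. Lower panel, its 5 transcripts with exons in green and TSSs as orange arrowheads. Summits stood 960 bp before the 5' end, on either side of the canonical TSS and through the 3' part, with none in the 34132 bp between.

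RUNX1 (ENSG00000159216.19, chromosome 21, 34787801 to 36004667, minus strand) had 1 peak in 1217 kb. GENCODE lets the gene reach that far through a few long transcripts. The canonical transcript spans 261.5 kb from the distal promoter, and the peak lay inside it (34834320 to 34834541, fold 3.94, 9 fragments over 1.54). The summit was 214842 bp from the canonical TSS, in coding sequence of exon 7, which is 3' UTR in another transcript. GC content alone would have given 6.70 peaks over the whole gene, and the ratio was 0.149 (0.00378 to 0.832). Over the canonical transcript alone the GC-based number was 2.92 and the ratio 0.343 (0.00868 to 1.91), an interval that includes 1, so fewer peaks than composition gives were not detectable there. In windows of 50 to 60% GC there was 1 summit in 106.8 kb, or 0.0936 per 10 kb, against 0.420 in such windows everywhere. Chromosome 21 as a whole had 0.557 times its GC-based number. No summit lay within 50 kb of the proximal promoter region, although the 2 kb around its TSSs reached 72.3% GC.

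RUNX2 (ENSG00000124813.23, chromosome 6, 45328157 to 45664349, plus strand) had 1 peak in 336 kb, against a GC-based number of 2.42 (ratio 0.414, 0.0105 to 2.31). It had 5 fragments, the lowest pileup in the whole list, over a background of 0.697 and with a −log10 q of 1.41 (45661520 to 45661647, fold 3.53). The summit lay 333370 bp from the 5' end and beyond the end of the canonical transcript. Around this summit 65.3% of 32-mers occurred once in the genome, and others up to 1784 times. Of all copies 1.34% lay within 5 kb, so most copies lay further away. No summit lay within 200 kb of any RUNX2 TSS, the distal promoter of 34.6% GC and the proximal one of up to 68.9% GC included.

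CBFB (ENSG00000067955.15, chromosome 16, 67028984 to 67101058, plus strand) had 1 peak in 72.1 kb, with 7 fragments over a background of 0.697 and a fold of 4.71 (67082220 to 67082380). Its summit lay in coding sequence of exon 5 of the canonical transcript, which is 3' UTR in another transcript, and 173 bp downstream of the start of a transcript with a retained intron. The sequence had a GC content of 40.6%, the lowest of the set, and was single-copy. The GC-based number was 0.563, so that 1 peak is within counting error of it (ratio 1.78, 0.0450 to 9.90). The main start of the gene, in sequence of 64.0% GC, had no summit within 14 kb. CBFB had 0.137 peaks per 10 kb of gene. Its summit lay in a 400-bp window of 40 to 50% GC. The 8 kb of CBFB windows of 50% GC or more held no summit. The 100 kb on either side of CBFB held 11 and 16 peaks.

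CBFA2T2 (ENSG00000078699.22, chromosome 20, 33490075 to 33650036, plus strand) had no peak in 160 kb, for which the exact Poisson interval reaches 0.229 per 10 kb and the limit of 3 counts for a count of 0 is 0.186 per 10 kb. Its GC content of 42.4% gave a number of 1.41. The nearest summits lay 26435 bp before its 5' end and 6205 bp beyond its 3' end, and the 100 kb on that side held 12. RUNX1T1 (ENSG00000079102.17, chromosome 8, 91954972 to 92103286, minus strand) had no peak at any of its 41 TSSs or in its 148.3 kb, for which the same limits are 0.247 and 0.201 per 10 kb. At 38.1% GC it would have held 0.567 peaks, and the 500 kb on either side held 0 and 1. In both genes the exact interval of the ratio to the GC-based number includes 1, so fewer peaks than composition gives were not detectable. Of the 3 ETO family genes, CBFA2T3 had both the most peaks and the highest GC content.

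Without CBFA2T3, the other 6 genes had 11 peaks against a GC-based number of 17.2. Of that number 6.70 came from the whole span of RUNX1, against 2.92 over its canonical transcript. No interval was computed for this sum, so it is not a result about the 6 genes. Over all 7 genes, 104 TSSs were annotated and 10 of them had a summit within 1 kb, which came to 7 peaks, with the other 40 further away.

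The core letters of the RUNX binding site were sought in the 300 bp centred on each summit, as TGTGGT or TGCGGT on either strand. One or the other was present at 10 of the 36 CBFA2T3 peaks (27.8%) and at 2 of the 8 RUNX3 peaks, and at none of the single peaks of RUNX1, RUNX2 and CBFB. Of all peaks, 23.8% held one. The matches are letters in a window and not binding sites.

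Partners of these proteins gave a wider view, from 60 genes in 6 lists. In all, 39 of the 60 (65%) had a peak by the same rule, against 47.2% of protein-coding genes, and they held 155 peaks against a GC-based number of 115. Of 12 genes of the ETO corepressor complex, 10 had a peak. HDAC3, a histone deacetylase, had 2 (1.18 per 10 kb) and SIN3B, a scaffold of deacetylase complexes, had 5 (0.962). Of 11 genes of E proteins and the SCL complex, with which CBFA2T3 acts in blood precursors, 7 had a peak. LDB1, a bridging factor, had 6 (4.03 per 10 kb), LYL1 had 2 (3.90) and TCF3, an E protein, had 10 (2.26).

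Among 17 RUNX co-regulators and modifiers, 10 had a peak. PRMT1 had 4 (2.81 per 10 kb), SMAD3, a transducer of TGF-beta signals, had 14 (1.06) and TLE2, a Groucho corepressor, had 4 (0.784). Of 4 genes that are fused to a member in leukaemia, 3 had a peak. GLIS2, the partner of CBFA2T3 in a childhood leukaemia, had 13 (5.03 per 10 kb), MYH11, the partner of CBFB, had 4 (0.258) and ETV6 had 1 (0.0405). Of 9 RUNX target genes of blood, 7 had a peak, with ELANE at 4 (6.42 per 10 kb), CEBPA at 2 (5.55) and MPO at 1 (0.828). Of 7 RUNX target genes of bone and cartilage, 2 had a peak, SP7 and COL10A1 with 1 each (0.507 and 0.245 per 10 kb). The 7 held 2 peaks against a GC-based number of 5.63, most of which came from ALPL, a gene without a peak. Each of the other lists held more peaks than its GC-based number. No interval was computed for any list or for all lists together, so these comparisons are not results about the lists.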

How the data were processed

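The authors' deposited peak table, made from 1 H4R3me2a library against 1 input library, was used. Per the submitters' processing notes, Bowtie2, MACS2 and deepTools were used with build GRCh38, with no version or parameter stated there. Per the file headers, the table gives each peak's position, its summit pileup (signal, in whole fragments), its fold (a ratio to the local background) and the −log10 of p and q. Peaks are of single libraries, not pooled.

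The background was recovered as (pileup + 1) / fold − 1. Peaks on chromosomes 1 to 22 and X were assigned with GENCODE release 44, and none ended beyond a chromosome of the reference. Densities used the gene body joined with 1 kb on either side of each TSS. GC-based numbers summed, over 400-bp windows, the mean peak rate of each 2% GC bin, and counting was checked on simulated peaks. Copies of 32-mers were exact matches on either strand, chromosomes 1 to 22 and X. Python 3.11.15 and numpy 2.4.6 were used. RefSeq promoters (GRCh38.p14) matched 5 of the 7 symbols, all but RUNX1T1 and CBFB.

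The members and lists were chosen with earlier results of these data known. Named genes were all members, up to 3 genes per list by density (1 gene of the ETO corepressor list is not reported here), the neighbours of genes with a peak, and 5 genes of like length and density. No test was possible with 1 library per group.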

Additional observations from a re-analysis of the deposited data

How the results depend on the processing

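No paired analysis was possible because each group had 1 library. Stricter thresholds lowered the counts, and the definition of a TSS moved those near a TSS. With a −log10 q of 5 or more, CBFA2T3 kept 1 peak (0.0968 per 10 kb) and none near a TSS, 2 members had a peak, the set held 3, and 1 member had a peak within 1 kb of a TSS. With a fold of 4 or more, CBFA2T3 had 14 peaks (1.35 per 10 kb), 2 of them near a TSS, and 3 members held 20. With the 50% of peaks of higher −log10 q, CBFA2T3 had 23 (2.23 per 10 kb), and 3 members held 29. The density was 2.42 when peaks less than 1 kb apart were merged. CBFA2T3 had 0, 14, 1 and 0 peaks near a TSS with a window of 500 bp, a window of 3 kb, TSSs of basic transcripts and the 5' end only, and 1 member had one with 500 bp or with the 5' end only. Other alternatives kept these counts within 1.5 times the reported ones. Restriction to single-copy summits, chosen after seeing the data, left 31 CBFA2T3 peaks and none in RUNX2, and the RUNX2 peak was also lost with the canonical transcript span. The cause of these changes was not tested, except that stricter sets hold fewer peaks by construction. Over its canonical transcript RUNX3 had 1.89 peaks per 10 kb, against 1.20 over the whole gene. The interval of the ratio of RUNX1 to its GC-based number included 1 over its canonical transcript, an alternative chosen after seeing the data, and lay below 1 over the whole gene. The effect of depth was not tested, and the RUNX2 and CBFB peaks rest on 5 and 7 fragments.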

Other observations

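Each RUNX gene is followed on its 3' side by a gene of the CLIC family, which encodes chloride intracellular channel proteins, and each of these neighbours had 1 peak. CLIC6 beside RUNX1 had 0.199 peaks per 10 kb, CLIC5 beside RUNX2 had 0.0499 and CLIC4 beside RUNX3 had 0.100. Their GC-based numbers were 0.906, 1.06 and 1.31 in that order. By the same rule 47.2% of protein-coding genes had a peak, so a count over so few genes is not a result about them. The next protein-coding genes on the 5' side without overlap, SETD4, CDC5L and SYF2, had no peak. Their GC-based numbers were 0.687, 0.228 and 0.169. SETD4 was taken from the 5' end of the whole RUNX1 gene, 955365 bp from its canonical TSS. SUPT3H, a protein-coding gene on the other strand that overlaps RUNX2, also had no peak. On either side of CBFB, CES4A had 1 peak and PHAF1 had none. The RefSeq promoters of RUNX1 (72% GC, 40 CpGs in 300 bp) and of the proximal start of RUNX2 (76%, 39 CpGs) were as rich in CpG as that of the proximal start of RUNX3 (76%, 38 CpGs). Of these 3 starts only that of RUNX3 had a summit within 1 kb, 826 bp away and so outside a window of 500 bp. The RefSeq promoter of CBFA2T3 (83%, 46 CpGs) lies next to an internal TSS with a summit 654 bp away. Within 1 kb of any TSS, 31.6% of protein-coding genes had a peak, so 1 of 3 is not a result about these starts. The distal promoter of RUNX2 held the RUNX core letters 5 times in 300 bp and that of RUNX3 held them 2 times. The other RefSeq promoters matched to the members held none. Of 35116 RefSeq promoters 19.6% held them at least once, and how many held them 5 times was not counted.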
